A study of Mus musculus with 9 samples.

Results

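A group of 10 transcription factors that β-cells of the pancreatic islet use to hold their identity was followed through the mRNA sequencing of INS-p25OE pancreatic neuroendocrine tumors (PanNETs) and normal mouse islets. The genes were chosen by name (Pdx1, Nkx6-1, Nkx2-2, Mafa, Neurod1, Pax6, Isl1, Mnx1, Insm1 and Rfx6) and taken by Ensembl identifier from the 54347 genes listed in the deposited table. All 10 were among the 15532 genes that passed a filter of at least 1 CPM (counts scaled to the size of the library) in at least 3 libraries, and the lowest count of any of them was 908 (Mnx1 in 1 tumor). There were 9 libraries, M1 to M3 from functional tumors, M4 to M6 from non-functional tumors and NI1 to NI3 from normal islets, 3 in each group, with 36468280 to 63637175 counts each. The tumor-bearing mice carried 2 transgenes, Ins2-rtTA, in which the insulin promoter drives a doxycycline-dependent transactivator, and tetOp-p25GFP, which then yields p25, the aberrant activator of the kinase Cdk5. Doxycycline was given from weaning at 3 to 4 weeks of age, a start listed for the islet libraries as well. The paper used littermates without the transgenes as normal controls. It does not state whether the sequenced islets came from them. The age at which the sequenced tumors were taken was not given in the sources used here. The islets carry the strain label C57BL/6, and M2 came from a female mouse while every other library came from a male. Since the insulin promoter drives the transactivator, the transgene is meant for cells in which that promoter, itself a target of several of the 10 factors, is active. The paper saw low transgene expression without doxycycline too, and none in liver or kidney.

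Transcription factors of this kind bind the regulatory regions of insulin and of other β-cell genes, and the combination present in a cell sets which hormone it makes. Pdx1 and Mnx1 act from the first pancreatic buds onward, Insm1, Neurod1, Rfx6, Nkx2-2, Isl1 and Pax6 act as endocrine cells form, and Nkx6-1 and Mafa mark the β-cell and its maturation. In the adult islet, loss of a single one of several of them is known to let β-cells take on features of other endocrine cells.

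The promoters of the 3 factors with the highest ratio of tumor to islet level, Mnx1, Isl1 and Pdx1, are shown as the sequence next to the start of each gene. None of the 3 passed the test of tumors against islets given below. RefSeq sequence (GRCm38.p6) was held for 8 of the 10 factors, without Mafa and Insm1, and only bases upstream of both the RefSeq and the GENCODE start are printed, 5′ to 3′ on the strand of the gene. Capitals mark matches on either strand to the E-box CANNTG, the site of Neurod1 and its class, and to TAAT, the core of sites for homeodomain proteins such as Pdx1, Isl1 and Mnx1. The motif TGCTGAC of the Maf proteins was also searched, with no match. No match overlapped another. The Mnx1 sequence is chr5:29478471-29478720 on the minus strand, the Isl1 sequence chr13:116309690-116309938 on the minus strand and the Pdx1 sequence chr5:147269847-147269958 on the plus strand.
Mnx1: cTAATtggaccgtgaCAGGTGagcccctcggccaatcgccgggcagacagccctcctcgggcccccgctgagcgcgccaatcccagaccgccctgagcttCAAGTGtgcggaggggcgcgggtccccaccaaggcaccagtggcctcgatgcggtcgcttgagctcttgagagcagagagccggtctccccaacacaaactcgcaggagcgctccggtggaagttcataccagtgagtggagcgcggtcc
Isl1: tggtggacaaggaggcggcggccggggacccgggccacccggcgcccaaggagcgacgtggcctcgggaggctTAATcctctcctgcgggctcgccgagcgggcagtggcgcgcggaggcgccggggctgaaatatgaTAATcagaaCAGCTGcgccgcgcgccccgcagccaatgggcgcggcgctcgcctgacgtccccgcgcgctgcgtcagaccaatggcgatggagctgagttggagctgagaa
Pdx1: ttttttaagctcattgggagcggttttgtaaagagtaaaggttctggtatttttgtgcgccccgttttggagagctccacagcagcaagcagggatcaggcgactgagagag
The 250 bases of Mnx1 held 2 E-boxes and 1 TAAT, and the 249 bases of Isl1 held 1 E-box and 2 TAAT. In windows of the same length and place, 66.2% and 54.9% of all 32851 promoters of the table held these motifs for Mnx1, and 66.1% and 54.8% for Isl1. The 112 bases of Pdx1 held none of the 3 motifs, which 39.6%, 36.8% and 1.5% of promoters held in that window. The TGCTGAC motif was in 3.8% of the longer windows. The matches are a description of letters and not of binding.

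The label of each library was first read against Cdk5r1, the gene whose protein product p35 is cleaved to p25. Its TMM-scaled level was 149 to 401 CPM in the tumors, 18.4 CPM in NI2 and 12.5 CPM in NI3, and 280 CPM in the library labelled NI1, inside the range of the tumors. The log2 fold change of Cdk5r1 between tumors and islets was 1.32 with all libraries (adjusted p = 0.416, edgeR quasi-likelihood test with Benjamini-Hochberg adjustment) and 4.06 without the library labelled NI1 (adjusted p = 0.00367). Among the 36 pairs of libraries, the library labelled NI1 and the tumor M6 were the most alike over all tested genes, with a median absolute log2 difference of 0.105. The next closest pair was NI2 and NI3 at 0.205, and the library labelled NI1 lay at 0.341 from NI2 and 0.415 from NI3. For the 10 factors its level was 0.869 to 1.1 times that of M6. Only for 6 of the 10 was it nearer to M6 than to the mean of NI2 and NI3. The comparisons are therefore given with all 9 libraries, without the library labelled NI1, and without both it and M6. M4 also stood apart, with 32.1% of its counts from mitochondrial genes against 1.76% to 8.41% in the other libraries and the lowest scaling factor (0.693).

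The first comparison asked whether tumors differed from islets in the levels of these factors. All 10 remained expressed in every tumor, and none passed the test in tumors against islets, where 0.258% of all tested genes did. The median log2 fold change of the 10 was 0.13, beside 0.03 over all tested genes, and the median absolute value was 0.19, beside 0.36. Mnx1 (log2 fold change 0.62, 95% interval 0.07 to 1.17), Isl1 (0.60, -0.01 to 1.21) and Pdx1 (0.44, 0.01 to 0.87) had the highest values, and Rfx6 had the lowest (-0.25, -0.85 to 0.35). The interval lay within a 2-fold change in either direction for 8 of the 10 with all libraries (not Isl1 and Mnx1), for 6 without the library labelled NI1 (Nkx6-1 and Mafa also reached past it) and for 4 without that library and M6 (Pdx1 and Rfx6 as well). In these bulk samples, fewer cells of a type and less RNA per cell cannot be told apart.

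**Figure D1:**
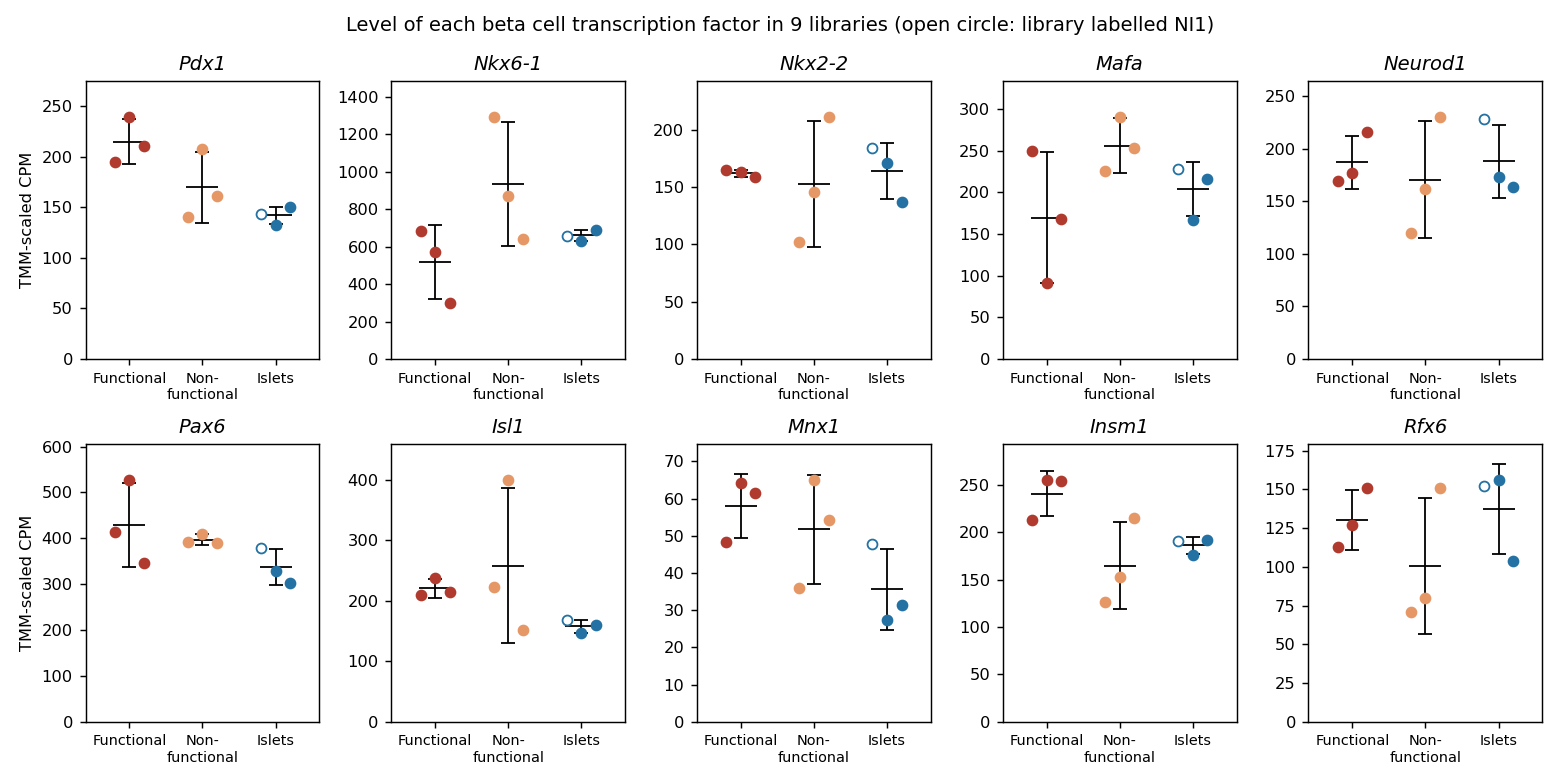
TMM-scaled CPM (y axis, linear from 0) of each of the 10 factors in 3 functional tumors, 3 non-functional tumors and 3 islet libraries (x axis). Circles are libraries, the open circle is the library labelled NI1, and the horizontal line and bars give the mean and SD of each group (n = 3). Nkx6-1 runs from 300 to 1290 CPM among tumors and from 630 to 689 CPM among islets, whereas Pax6 runs from 345 to 527 CPM among tumors.

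Among the factors of the early pancreas, Pdx1, a homeodomain activator of the insulin gene, was at 195, 239 and 211 CPM in the functional tumors, 140, 208 and 161 CPM in the non-functional tumors, and 143, 133 and 150 CPM in the islets. Only M4 did not lie above all islet libraries. Its group means were 215 ± 22.1 CPM (SD, n = 3) in functional tumors, 170 ± 35.1 CPM in non-functional tumors and 142 ± 8.59 CPM in islets (n = 3 each). The difference between all tumors and islets was under 0.05 in unadjusted p but did not pass after adjustment (adjusted p = 0.249, edgeR).

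Mnx1, a homeodomain factor needed for the dorsal pancreatic bud and for β-cell fate, was the least abundant of the 10. It was at 48.2, 64.3 and 61.4 CPM in the functional tumors and 36.0, 65.0 and 54.2 CPM in the non-functional tumors. It was at 47.9 CPM in the library labelled NI1, 27.4 CPM in NI2 and 31.5 CPM in NI3. Every tumor lay above NI2 and NI3, and M4 lay below the library labelled NI1. Its log2 fold change was 0.62 with all libraries (adjusted p = 0.212, edgeR), 0.90 without the library labelled NI1 (adjusted p = 0.0628) and 0.90 without that library and M6 (adjusted p = 0.0798). It was thus the factor with the smallest adjusted p in each of these fits, short of the 0.05 threshold in all of them. DESeq2 without the library labelled NI1, a choice made after seeing the data, called Mnx1 higher (log2 fold change 0.89, adjusted p = 0.00719), 1 of the 10 factors, where it called 18.8% of all tested genes.

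Nkx6-1, which keeps β-cells apart from other endocrine cells, varied most among the tumors. It was at 684, 570 and 300 CPM in M1, M2 and M3 and at 1290, 870 and 641 CPM in M4, M5 and M6, a 4.29-fold range. The islets lay at 659, 630 and 689 CPM, a 1.09-fold range. Thus M4 and M5 lay above all islets, M2 and M3 below them, and M1 and M6 between them. The mean was 726 ± 333 CPM in tumors (n = 6) and 660 ± 29.5 CPM in islets (n = 3), and the log2 fold change of 0.14 had an interval from -0.71 to 0.98. The SD of log2 CPM over the tumors was 0.696 for Nkx6-1, above that of 84.2% of tested genes.

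Nkx2-2, a homeodomain repressor and activator of endocrine differentiation, was at 165, 163 and 159 CPM in the functional tumors, at 102, 146 and 211 CPM in the non-functional tumors and at 184, 171 and 137 CPM in the islets. The functional tumors differed by less than the islets did among themselves, and the non-functional tumors spanned a 2.07-fold range. Its log2 fold change of -0.05 had an interval from -0.54 to 0.43.

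Of the direct activators of the insulin gene besides Pdx1, Mafa, a basic leucine zipper factor of mature β-cells, was at 249, 91.8 and 168 CPM in the functional tumors, 225, 290 and 253 CPM in the non-functional tumors and 228, 167 and 216 CPM in the islets. M2 held the lowest level and M5 the highest, and the islets lay between. Its mean was 213 ± 71.5 CPM in tumors (n = 6) and 204 ± 32.5 CPM in islets (n = 3), and the log2 fold change of 0.06 had an interval from -0.64 to 0.77.

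Neurod1, a basic helix-loop-helix factor that binds E-boxes of the insulin promoter, was at 169, 177 and 216 CPM in the functional tumors and 120, 162 and 230 CPM in the non-functional tumors. It was at 228, 173 and 164 CPM in the islets, so that tumors and islets overlapped. The library labelled NI1 was at 0.994 times the highest tumor, M6. Its log2 fold change was -0.08 (interval -0.57 to 0.42), and it changed sign to 0.08 without the library labelled NI1. A stretch of 201 bases, 7.4% of the Neurod1 exons, is shared with Cerkl on the same strand, and reads there could be assigned to either gene.

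Pax6, a paired-box factor of all endocrine cells of the islet, was at 413, 527 and 345 CPM in the functional tumors, 392, 410 and 389 CPM in the non-functional tumors and 379, 329 and 302 CPM in the islets. Every tumor lay above NI2 and NI3, and M3 lay below the library labelled NI1. It was the steadiest factor in the tumors, with a 1.53-fold range and an SD of log2 CPM of 0.201, below that of all but 9.54% of tested genes. Its log2 fold change was 0.29 with an interval from -0.14 to 0.73. Pax6 and Mnx1 were the 2 of 10 factors whose tumors all lay above NI2 and NI3, where 16.6% of tested genes did.

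Isl1, a LIM-homeodomain factor of all islet endocrine cells, was at 210, 238 and 214 CPM in the functional tumors, 223, 400 and 152 CPM in the non-functional tumors and 168, 146 and 160 CPM in the islets. Only M6 did not lie above all islets. The log2 fold change of 0.60 (adjusted p = 0.261, edgeR) was 0.40 without M5, the tumor with 400 CPM, and 0.70 without M6.

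Insm1, a zinc-finger repressor that neuroendocrine cells share, was at 213, 255 and 254 CPM in the functional tumors, 126, 153 and 215 CPM in the non-functional tumors and 191, 176 and 192 CPM in the islets. M4 and M5 lay below all islets and the other tumors above them. Rfx6, a winged-helix factor upstream of insulin secretion genes, was at 113, 127 and 151 CPM in the functional tumors, 70.5, 79.7 and 151 CPM in the non-functional tumors and 152, 156 and 104 CPM in the islets. No tumor exceeded the islet range for Rfx6, and M4 and M5 lay below it. Their log2 fold changes of 0.12 (interval -0.41 to 0.66) and -0.25 (-0.85 to 0.35) did not pass the test.

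**Figure D2:**
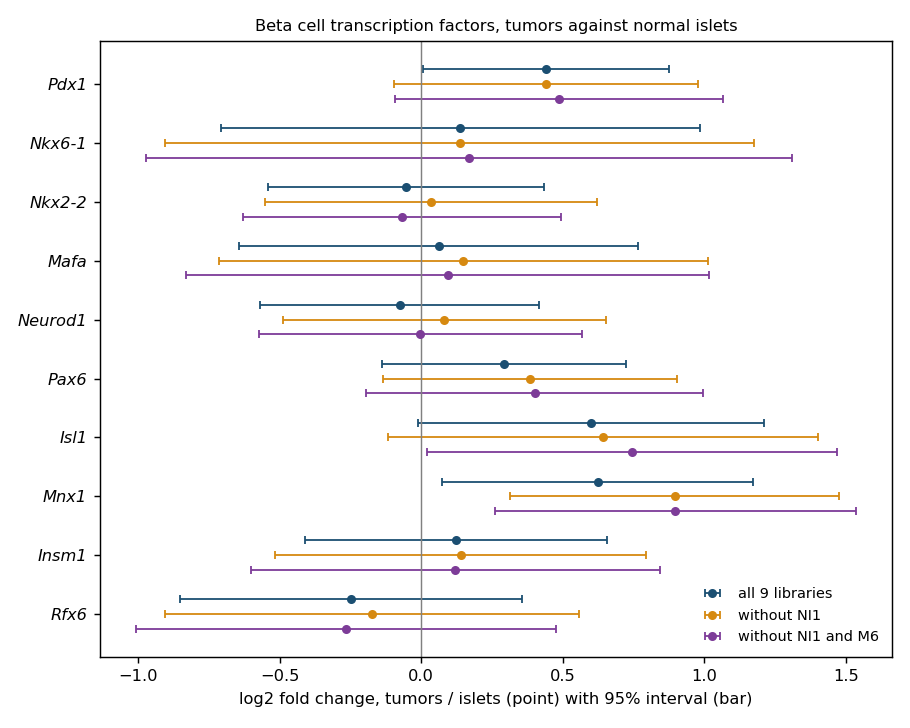
log2 fold change of each factor between all tumors and islets (x axis, points) with its 95% interval (bars), from edgeR with all 9 libraries, without the library labelled NI1, and without that library and M6. Only the intervals of Pdx1 (all libraries), Isl1 (without both libraries) and Mnx1 (all 3 fits) lie above 0, and none of these values passed the adjusted threshold.

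Without the library labelled NI1, 8.34% of all tested genes passed in tumors against islets. Without that library and M6 9.32% did. None of the 10 factors was among them in either fit, which for 10 genes is near these shares. The range of log2 fold changes of the 10 was -0.17 to 0.90 without the library labelled NI1 and -0.27 to 0.90 without both. By other tools on all 9 libraries, DESeq2 and limma-trend called none of the 10 in tumors against islets, and limma-voom with library weights called Isl1 and Mnx1 higher (0.52, adjusted p = 0.0456, and 0.79, adjusted p = 0.0134). Over all tested genes DESeq2 called 8.06%, limma-trend 0.212% and limma-voom with library weights 26.8%, so that 2 of 10 was no larger a share than among all genes. At an unadjusted p under 0.05, edgeR held 2 of 10, Pdx1 and Mnx1, where 19.8% of all tested genes were, a share near that of the 10. No factor had its 6 tumors all above or all below the 3 islet libraries, where 4.5% of tested genes lay all above and 3.17% all below.

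The levels of different factors were compared per kilobase of exon. In islets Nkx6-1 led at 210 ± 9.4 CPM per kilobase (SD, n = 3), above 99.2% of tested genes. Mafa (74.4 ± 11.8), Neurod1 (69.1 ± 12.7), Pdx1 (65.8 ± 3.98), Insm1 (60.1 ± 2.95) and Nkx2-2 (56.9 ± 8.48 CPM per kilobase) followed, and the islet ranges of each pair of neighbours among these 5 overlapped. Nkx2-2 exceeded Isl1 (39.9 ± 2.82) in every islet library, Isl1 and Rfx6 (34.2 ± 7.13) overlapped, as did Rfx6 and Pax6 (28.8 ± 3.34), and Mnx1 was lowest (15.8 ± 4.83 CPM per kilobase) in each. Nkx6-1 led in every tumor but M3, where Pdx1 stood first at 97.9 and Nkx6-1 second at 95.8 CPM per kilobase. The order depends on the length used. With the longest transcript in place of all exons Nkx2-2 moved from rank 6 to 2 (77.2 CPM per kilobase), Pax6, whose exons sum to 11694 bases over 26 transcripts, from 9 to 3 (76.0), Mafa from 2 to 4, Insm1 from 5 to 8, and Isl1 came to 62.8 CPM per kilobase, while Nkx6-1 stayed first and Mnx1 last.

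The second comparison separated the tumors by class. In functional tumors against islets the log2 fold change was highest for Mnx1 (0.70, interval 0.06 to 1.35), Pdx1 (0.60, 0.16 to 1.05), Isl1 (0.48, -0.23 to 1.19) and Insm1 (0.37, -0.13 to 0.87), and lowest for Nkx6-1 (-0.35, -1.17 to 0.47). For Pdx1, Isl1, Mnx1 and Insm1, 4 of 10 factors, all 3 functional tumors lay above all 3 islet libraries, where 15.4% of tested genes did. None of the 10 passed the edgeR test, where 0.476% of all tested genes did, nor without the library labelled NI1 (7.82% of genes) or without that library and M6 (9.14%). The smallest adjusted p was 0.152 for Pdx1 with all libraries and 0.0749 for Mnx1 without the library labelled NI1. DESeq2 called 1 factor in this comparison, Pdx1 (log2 fold change 0.59, adjusted p = 0.0383), limma-voom with library weights called Pdx1 and Mnx1, and limma-trend called none. The shares of all tested genes were 10% (1556 genes) by DESeq2, 22.2% by limma-voom with library weights and 0.876% by limma-trend. At an unadjusted p under 0.05, edgeR held 2 of 10, again Pdx1 and Mnx1, where 21.1% of all tested genes were. The counts of factors called, or under 0.05 in unadjusted p, were thus near the background. The 4 of 10 without overlap lay above the share of 15.4%, a difference that was not tested.

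In non-functional tumors against islets the highest log2 fold changes were those of Isl1 (0.71, interval -0.001 to 1.42), Mnx1 (0.54, -0.10 to 1.18) and Nkx6-1 (0.50, -0.32 to 1.32), and the lowest was that of Rfx6 (-0.45, -1.14 to 0.24). None of the 10 passed by edgeR, DESeq2 or either limma fit with all libraries, where DESeq2 called 2.54% of all tested genes, limma-trend 0.00644% and limma-voom with library weights 7.79%. None had an unadjusted p under 0.05 in edgeR with all libraries, where 14.5% of all tested genes were. With all libraries 0.0% of all tested genes passed by edgeR, 3.92% did without the library labelled NI1 and 7.04% did without that library and M6, and no factor was among them. Only Pax6 had its 3 non-functional tumors above all islet libraries, where 8.7% of genes did. Without M5 the value of Isl1 was 0.28, and without M6 it was 0.98. That of Rfx6 was -0.87 without M6 and -0.79 (interval -1.41 to -0.17, adjusted p = 0.108, edgeR) without M6 and the library labelled NI1. In the fit without both, Isl1 was at 1.03 (0.31 to 1.75, adjusted p = 0.0857, edgeR) and Mnx1 at 0.78 (0.04 to 1.52, adjusted p = 0.159). These 3 of 10 had an unadjusted p under 0.05 there, where 28.5% of all tested genes did. Both tumor classes were set against the same islet libraries, so the 2 sets of values are not independent.

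The last comparison set the functional against the non-functional tumors. Nkx6-1 was at 518 ± 197 CPM (SD, n = 3) in functional and 934 ± 329 CPM (n = 3) in non-functional tumors. The log2 fold change of -0.85 (interval -1.67 to -0.02, adjusted p = 0.480, edgeR) did not pass the test. M1 at 684 CPM exceeded M6 at 641 CPM, so the classes overlapped. Insm1 was at 241 ± 24.0 CPM in functional and 165 ± 45.6 CPM in non-functional tumors (0.55, interval 0.05 to 1.05, adjusted p = 0.475, edgeR), and the classes overlapped by M1 at 213 CPM and M6 at 215 CPM. Mafa was at 170 ± 78.5 and 256 ± 32.4 CPM (-0.59, interval -1.34 to 0.15). The intervals of Nkx6-1, Mafa, Insm1 and Rfx6 reached past 2-fold, and those of the other 6 did not. None of the 10 passed by edgeR, DESeq2 or either limma fit, where DESeq2 called 0.715% of all tested genes, limma-trend 0.00644% and limma-voom with library weights 0.0%. In edgeR 2 (Nkx6-1 and Insm1) had an unadjusted p under 0.05, where 10.3% of all tested genes did, and 0.0% of all tested genes passed the edgeR test with all libraries, without the library labelled NI1 and without that library and M6. On the CPM scale no factor separated the classes without overlap, where 8.77% of genes were all higher and 6.24% all lower in functional tumors. M4, the library with 32.1% mitochondrial counts, held the highest Nkx6-1 and, of the tumors, the lowest Pdx1, Nkx2-2, Neurod1, Mnx1, Insm1 and Rfx6. Without M4 the difference in Nkx6-1 was -0.55, that in Insm1 0.39 and that in Rfx6 0.19. Without M6 they were -1.06, 0.79 and 0.80, with Rfx6 at 0.38 with all libraries, and none passed (adjusted p = 0.281, 0.243 and 0.261, edgeR). The differences of these 3 factors were thus smaller without M4 and larger without M6.

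**Figure D3:**
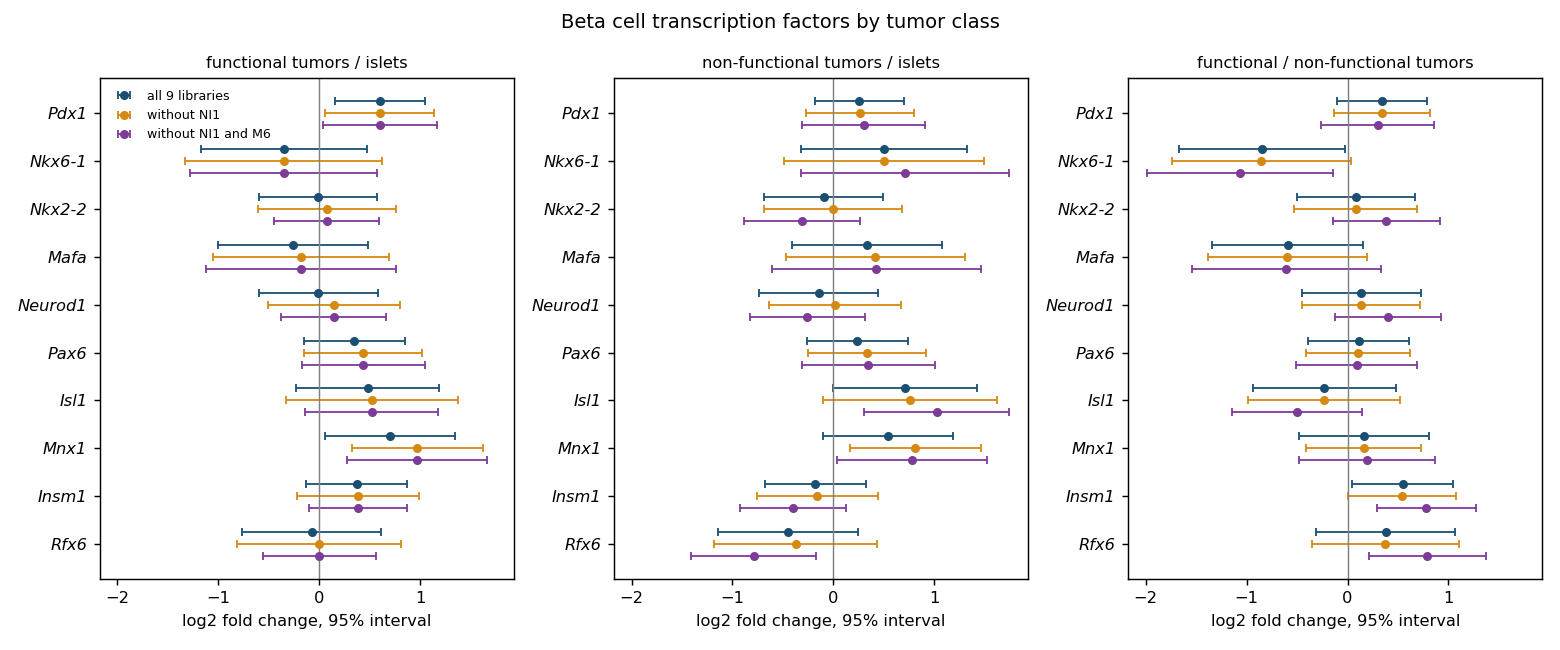
log2 fold change of each factor (x axis, points) with its 95% interval (bars) for functional tumors against islets, non-functional tumors against islets and functional against non-functional tumors, with all 9 libraries, without the library labelled NI1, and without that library and M6. Nkx6-1 stands below 0 and Insm1 above 0 in the comparison of the classes (-0.85 and 0.55 with all libraries), and most intervals cross 0.

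Within a library, the level of each factor can be read against the mean log2 level of the other 9, which does not depend on scaling. On this log2 scale Nkx6-1 stood at 1.95 to 2.29 in the islet libraries, at 3.31 in M4 and at 0.73 in M3. Mafa stood at -1.24 in M2, against 0.02 to 0.43 in the islets. Isl1 stood at 1.04 in M5 and -0.48 in M6, against -0.24 to -0.05 in the islets. Insm1 stood at 0.12 to 0.46 in the functional tumors and at -0.50 to 0.08 in the non-functional tumors, without overlap on this scale. Pdx1 and Isl1 stood higher in the 3 functional tumors than in the 3 islet libraries. These separations are given as values with no test, and the share of all genes on this scale was not computed. Higher without overlap on the CPM scale were 15.4% of tested genes in functional tumors against islets and 8.77% in functional against non-functional tumors. Insm1 overlapped between the classes on the CPM scale. The balance of factors thus ranged more widely among tumors than among islets for 9 of 10, the exception being Mnx1 (a range of 0.62 among 6 tumors and 0.63 among 3 islet libraries), though 6 libraries tend to span more than 3. The geometric mean of the 10 levels ran from 164 CPM in M4 to 209 CPM in M5, a 1.27-fold range over all 9 libraries.

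Across the 9 libraries, the factors fell into patterns that are given as a description, since the libraries share their groups and M6 and the library labelled NI1 are close to a single point. Nkx2-2, Neurod1 and Rfx6 followed each other, with Pearson r of log2(CPM + 1) of 0.893 for Nkx2-2 with Neurod1, 0.855 for Neurod1 with Rfx6 and 0.841 for Nkx2-2 with Rfx6. Pdx1 followed Mnx1 (0.83), and Pax6 was most like Mnx1 (0.66). Nkx6-1 ran against Insm1 (-0.86), Rfx6 (-0.76) and Neurod1 (-0.72), and its most similar factor was Mafa at 0.42. Of all tested genes outside the 10, those most like Pdx1 were Pigu (0.97) and Dele1 (0.96), those most like Nkx6-1 were Nemf (0.96) and Acp2 (0.95), and those most like Mafa were Osbpl9 (0.98) and Eif4e3 (0.95). Mnx1 was most like D930015M05Rik (0.99) and Evpl (0.98), Insm1 most like Ing3 (0.99) and Kansl2 (0.98), Isl1 most like Bax (0.97) and 1810055G02Rik (0.97), and Pax6 most like Ralgapa2 and Cfl2 (0.97 each). Nkx2-2 was most like Llgl2 (0.95) and 9330136K24Rik (0.94), Neurod1 most like Nfyb (0.96) and Gm45867 (0.93), and Rfx6 most like Zcchc2 (0.95) and 2610035D17Rik (0.93). Each of these is the top of all tested genes outside the 10, over only 9 libraries.

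**Figure D4:**
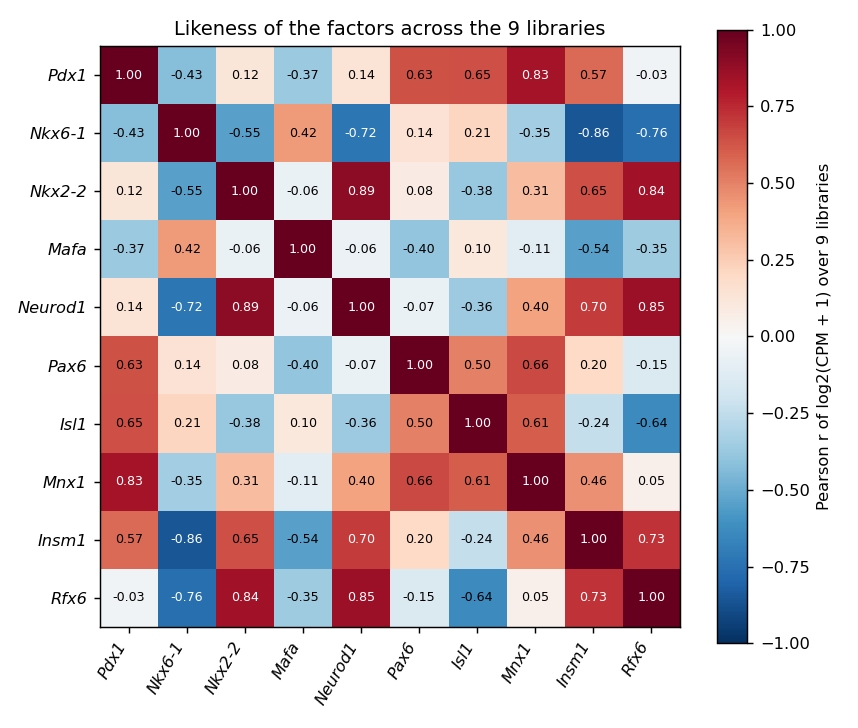
Pearson r of log2(CPM + 1) over the 9 libraries for each pair of factors (both axes), on a color scale from -1 to 1 with the value printed in each cell. Nkx2-2, Neurod1 and Rfx6 form a group with r of 0.841 to 0.893, and Nkx6-1 has negative values with 6 of the other 9 factors.

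The known target genes of these factors had a median log2 fold change of -0.36 in tumors against islets, with a median absolute value of 0.61. Ins1 and Ins2, the insulin genes, had all 6 tumors below all 3 islet libraries. Of the 15 target genes, these 2 lay all below and 1 (Nnat) all above, where 3.17% and 4.5% of all tested genes did. Ins2 was at 57500, 9540 and 7310 CPM in the functional tumors and 39100, 61700 and 88700 CPM in the non-functional tumors. It was at 88900 CPM in the library labelled NI1, 233000 CPM in NI2 and 249000 CPM in NI3, a 34.1-fold range over the libraries. Ins1 was at 21300, 6240 and 3830 CPM in the functional tumors and 15800, 19000 and 17200 CPM in the non-functional tumors. It was at 21700 CPM in the library labelled NI1, 57100 CPM in NI2 and 76000 CPM in NI3. The gap between the highest tumor and the library labelled NI1 was small for both genes. The log2 fold changes were -2.11 (SE 0.99, adjusted p = 0.270, edgeR) for Ins2 and -1.89 (SE 0.71, adjusted p = 0.196) for Ins1, so neither passed, while DESeq2 called both lower (adjusted p = 0.0222 and 0.00955). Nnat, an imprinted gene of β-cells that acts in insulin processing, had all tumors above all islets, at 94.7 to 345 CPM against 75.6 CPM in the library labelled NI1, 4.39 CPM in NI2 and 15.7 CPM in NI3. Its log2 fold change was 2.52 (adjusted p = 0.163, edgeR) and 4.18 without the library labelled NI1 (adjusted p = 0.0106).

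Of the 15 target genes, all of which were tested, edgeR called 0, and 5 had an unadjusted p under 0.05. These 5, named after their values were seen, were Nnat, with a positive value, and Ins1, Iapp, G6pc2 and Ero1lb (also called Ero1b), with negative values. DESeq2 called 5 of the list, limma-voom with library weights 6 and limma-trend 0. Over all tested genes, 19.8% had such a p in edgeR, and DESeq2 called 8.06% and limma-voom with library weights 26.8%. Of the 15 values, 4 were above 0. Without the library labelled NI1, edgeR called Nnat higher and G6pc2, the catalytic subunit of an islet glucose-6-phosphatase, lower (-1.79, adjusted p = 0.0392), and without that library and M6 it called Nnat alone.

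**Figure D5:**
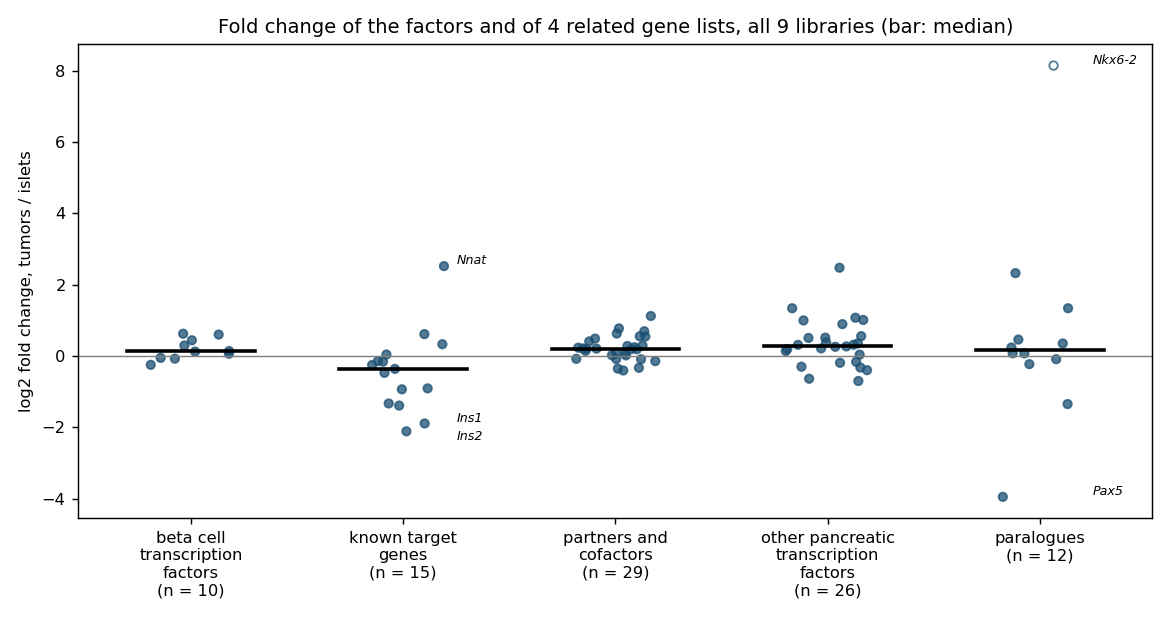
log2 fold change between all tumors and islets with all 9 libraries (y axis) for the tested genes of the 10 factors and of 4 related lists (x axis), with a bar at each list's median. The 10 factors lie between -0.25 and 0.62, and Ins1, Ins2, Nnat, Pax5 and Nkx6-2 are labelled. The open circle of Nkx6-2 has no fixed size, because its islet libraries are at or under 0.0343 CPM.

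The partners and cofactors through which the factors act had a median log2 fold change of 0.20, and a median absolute value of 0.23. Of 29 genes, all tested, edgeR called 0, DESeq2 0, limma-trend 0 and limma-voom with library weights 9, and 5 had an unadjusted p under 0.05 in edgeR, all with positive values (Tcf4, Ssbp3, Tle3, Crebbp and Hdac1, named after their values were seen). These counts were near the shares of all tested genes, 19.8% with such a p and 26.8% called by limma-voom with library weights. Smarca4, the ATPase of a chromatin remodeler that binds Pdx1, was at 199 to 410 CPM in the tumors and 175 to 192 CPM in the islets, without overlap (0.55, adjusted p = 0.266). Tle3, a Groucho corepressor of Nkx factors, was at 103 to 232 CPM in the tumors and 68.0 to 98.8 CPM in the islets, also without overlap (0.69, adjusted p = 0.225). These were the 2 of 29 genes with all tumors above all islets, a count near the share of 4.5% among all tested genes. Neither was called without the library labelled NI1.

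Among 34 other transcription factors of the pancreas, 26 passed the filter and 8 did not. EdgeR called 0 of 26 with all libraries, where 7 had an unadjusted p under 0.05, DESeq2 called 3, limma-voom with library weights 8 and limma-trend 0, beside 19.8%, 8.06%, 26.8% and 0.212% of all tested genes. Tshz1, a zinc-finger factor of the β-cell, was at 163 to 366 CPM in the tumors, 163 CPM in the library labelled NI1, 102 CPM in NI2 and 97.6 CPM in NI3. Before rounding the groups did not overlap (log2 fold change 0.89, adjusted p = 0.168, edgeR). This was 1 of 26 genes, where 4.5% of all tested genes had all tumors above all islets. Without the library labelled NI1, edgeR called 4 of the list higher, Pax4 and Mlxipl among them, named here after their values were seen. Pax4, a factor of β-cell precursors, was at 0.786, 24.6 and 144 CPM in the functional tumors and 6.26, 46.7 and 71.1 CPM in the non-functional tumors. It was at 58.0 CPM in the library labelled NI1 and had no count in NI2 and NI3. With all libraries its log2 fold change was 1.34 (adjusted p = 0.727, edgeR), and without the library labelled NI1 its adjusted p was 0.0438.

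Of 29 paralogues of the 10 factors, which share family but mostly act in other tissues, 12 passed the filter. EdgeR called 1 of the 12, beside 0.258% of all tested genes. This was Pax5, a factor of B cells. It was at 0.382 to 1.82 CPM in the tumors and 11.4, 18.8 and 14.1 CPM in the islets (log2 fold change -3.95, adjusted p = 0.0185). Pax5 fell beside the lymphoid markers, whose sum over 8 genes was 19.8 to 118 CPM in the tumors and 176 to 225 CPM in the islets, of which 2 of 8 passed the test as lower. It did not pass without M5 (adjusted p = 0.0847), NI2 (0.140) or NI3 (0.107). Nkx6-2, a paralogue of Nkx6-1, was at 0.0352 to 13.4 CPM in the tumors, at 0.0343 CPM in the library labelled NI1 and without a count in NI2 and NI3, and 4 tumors exceeded 3 CPM. Its islet level lay under that of 3 counts (0.0514 CPM in the library labelled NI1), as did that of M6, so no fold change is given. Maf, named after its values were seen, had an unadjusted p under 0.05 and was called without the library labelled NI1 (2.85, adjusted p = 0.0417).

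Summed levels of markers of other cells, of proliferation genes and of pan-endocrine genes were read in the tumor and islet libraries. Some sums differed without overlap and others overlapped. Macrophage markers summed to 465 to 1270 CPM in the tumors, 433 CPM in the library labelled NI1, 309 CPM in NI2 and 189 CPM in NI3. By edgeR, 8 of 8 genes had an unadjusted p under 0.05 and none was called. Over all tested genes, 19.8% had such a p and 0.258% were called. Proliferation genes summed to 304 CPM (M6) to 904 CPM in the tumors. They summed to 283 CPM in the library labelled NI1, 147 CPM in NI2 and 45.5 CPM in NI3. Again 8 of 8 genes had an unadjusted p under 0.05 and none was called. Acinar markers summed to 21.9 to 302 CPM in the tumors and 423 to 7020 CPM in the islets, with 10 of 11 tested genes lower at an unadjusted p under 0.05. Markers of α-, δ- and PP-cells, which share Pax6, Isl1, Neurod1, Insm1 and Rfx6 with β-cells, summed to 600 to 3690 CPM in the tumors and 2000 to 21800 CPM in the islets. Fibroblast markers ran from 82.0 to 1500 CPM in the tumors, the lowest in M6 and the highest in M4, and from 104 to 167 CPM in the islets. The pan-endocrine genes summed to 12700 to 37500 CPM in the tumors and 23400 to 46200 CPM in the islets. Ductal markers (474 to 974 CPM in tumors, 567 to 665 CPM in islets) and endothelial markers (413 to 1290 and 1090 to 1230 CPM) also overlapped between the groups. No defining marker of these lists was at 0 in every library, and the part of these cells in the levels of the 10 factors was not tested.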

How the data were processed

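The authors trimmed single-end reads with Trimmomatic 0.38 and quantified transcripts with Salmon 1.4.0 on mm10, as the submitters' processing notes list. The deposited values, in a table named TPM, are whole-number estimated counts, since its columns sum to 36468280 to 63637175. How transcripts were summed to genes and whether strand was used are not given in the sources used here. The counts were taken as deposited and tested with edgeR 4.0.16 (TMM scaling, quasi-likelihood test, Benjamini-Hochberg over all 15532 tested genes, adjusted p under 0.05), on genes that reached 1 CPM in 3 or more libraries, in R 4.3.3. Intervals of 95% are on the log2 scale and p-values measure the spread between these libraries, which the study describes as biological replicates. Alternatives were DESeq2 1.42.0, limma 3.58.1, other scalings and filters and fits without single libraries. Scripts were tested on simulated data. Gene lengths are GENCODE M21 exons, and 54094 of 54347 identifiers matched. By rule, the genes named outside the 10 are, per list, those called in tumors against islets and then those whose 6 tumors do not overlap the 3 islet libraries, at most 4 a list, and for likeness the 2 genes with the highest correlation. Other genes were named after their values were seen. The 10 factors and the lists were chosen with earlier results of these data known. Results for some listed genes are not reported here.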

Additional observations from a re-analysis of the deposited data

Results flagged for a closer look

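Among the 6 tumors, the highest library lay far from the others for 1 of the 10 factors, by Dixon's ratio of the gap to the whole range. Isl1 was at 400 CPM in M5, with the next tumor at 238 CPM (ratio 0.655). The ratio of Pax6, at 527 CPM in M2 and 413 CPM in the next tumor, was 0.623 and lay just under the critical value for 6 samples. Both ends of 10 groups were read, and chance alone flags about 1 in 20 groups. Without M5 the log2 fold change of Isl1 between tumors and islets was 0.40 in place of 0.60, and without M2 that of Pax6 was 0.21 in place of 0.29. Neither gene passed the test with or without the tumor.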

How the results depend on the processing

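Over the 4 comparisons, 749 of 800 alternative values of the 10 factors kept their direction and their side of the threshold, 6 passed the threshold and 45 changed sign. The values that changed sign belonged to 15 results, were at most 0.26 in absolute log2 fold change with all libraries and at most 0.34 in the alternative, and none of them passed. In tumors against islets, limma-voom with library weights called 2 factors (Isl1 and Mnx1), and DESeq2 without the library labelled NI1 called 1 (Mnx1). In functional tumors against islets, DESeq2 called 1 (Pdx1) and limma-voom with library weights 2 (Pdx1 and Mnx1). The other alternatives, a threshold of 0.10 with all libraries among them, called 0 factors. The fits by DESeq2 without the library labelled NI1, and by edgeR without that library and M6, were chosen after seeing the data.

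With library totals in place of TMM, the median log2 fold change of all tested genes moved from 0.03 to 0.25 in tumors against islets, from 0.02 to 0.38 in functional tumors against islets and from 0.01 to 0.32 between the classes. In that scaling Nkx2-2 turned to 0.17 and Neurod1 to 0.15 in tumors against islets. In functional tumors against islets, Nkx2-2 turned to 0.33, Neurod1 to 0.34, Mafa to 0.09 and Rfx6 to 0.29, and between the classes Isl1 turned to 0.08. Each of these 7 values lay below the moved median. In tumors against islets, Mafa turned to -0.02 in limma-trend, and in DESeq2 without the library labelled NI1 Nkx2-2 turned to 0.03 and Neurod1 to 0.08. In functional tumors against islets, Nkx2-2 and Neurod1 both turned to 0.04 with no filter and to 0.01 with filterByExpr. Limma-voom with library weights gave 0.0014 for Nkx2-2, 0.09 for Neurod1 and 0.05 for Mafa there, and the fit without the library labelled NI1 and M6 gave 0.07 for Nkx2-2, 0.15 for Neurod1 and 0.0013 for Rfx6. The cause was not tested.

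Leaving out each library in turn changed the sign of the same 15 results. In tumors against islets, values ran from -0.11 (without M4) to 0.30 for Nkx6-1, from -0.17 to 0.04 (without M4) for Nkx2-2, from -0.07 (without NI2) to 0.22 for Mafa and from -0.17 to 0.08 (without the library labelled NI1) for Neurod1. In functional tumors against islets they ran from -0.13 to 0.07 for Nkx2-2, from -0.65 to 0.04 for Mafa, from -0.12 to 0.15 for Neurod1 and from -0.24 to 0.02 for Rfx6. In non-functional tumors against islets they ran from -0.40 to 0.11 for Nkx2-2 and from -0.42 to 0.04 for Neurod1. Between the classes they ran from -0.13 to 0.39 for Nkx2-2, from -0.06 to 0.41 for Neurod1, from -0.07 to 0.24 for Pax6, from -0.50 to 0.19 for Isl1 and from -0.04 to 0.34 for Mnx1.

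Functional tumors and islets share the replicate numbers 1 to 3. The deviations of same-numbered libraries from their group means correlated at -0.052, 0.03 and -0.159, so no pairing by number was seen. With 3 libraries in each group, such a check cannot exclude pairing. The fit with a replicate block called 0 factors, 10 genes higher and 24 lower, and the fit of the same libraries without the block 56 and 107. Over all genes, tumors against islets gave 0 higher and 40 lower with all libraries, 764 and 488 in DESeq2, 2077 and 2090 in limma-voom with library weights, 6 and 98 with no filter, 2 and 64 with library totals and 819 and 461 without the library labelled NI1. Genes called ran over the alternatives from 0 to 6 of the target genes, 0 to 9 of the partners, 0 to 9 of the other pancreatic factors and 0 to 5 of the paralogues. With all libraries the intervals of Isl1 and Mnx1 in tumors against islets reached past 2-fold. Each factor had at least 908 counts in every library, and whether more depth would change a call was not tested.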
